A study of Mus musculus with 3 samples.

Results

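The transcription factor p53, encoded by Trp53, and 34 genes that it is known to regulate or that act on it were examined in splenic tumours of p53-haploinsufficient mice. The 35 genes were chosen by name as p53, its regulators and known targets, and were located on the array through the RefSeq transcript of each probe. All 35 had at least 1 probe, among 22911 genes named on the array. The scanner flagged 33 of them as well above background in 1 tumour or more, and these entered the comparisons, out of 15241 such genes. Eda2r and Perp were not well above background on any array.

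The samples were 2 tumours with the genotype LSD1 × p53+/−, which the labels number 2 and 3, and 1 tumour with the genotype p53+/−. They are called LSD1 tumour 2, LSD1 tumour 3 and the p53 tumour here. All came from male mice aged 10 weeks, as splenic cells used untreated, and all carried the p53+/− genotype. No tumour with a normal p53 genotype is part of the comparison. LSD1 is a histone demethylase, the product of Kdm1a, but the labels do not say which LSD1 allele or transgene the mice carried, in which cells it acted, or whether the numbers stand for mice or for lines. The labels also do not say which part of Trp53 was deleted or whether the tumours had lost the remaining copy.

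In normal cells p53 is held at a low level by Mdm2, which marks it for degradation, and by Mdm4, which binds and blocks its activating domain. DNA damage or oncogene activity releases p53, which then binds DNA as a tetramer and raises transcription of genes for cell cycle arrest, death, DNA repair and metabolism. Among these genes is Mdm2 itself, which closes a feedback loop. Mice with 1 functional copy of Trp53 are prone to tumours, among them lymphomas of the thymus and spleen.

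The DNA letters that p53 recognises are shown first, as the feature through which many of these genes became known as p53 targets. Their share is therefore not independent of how the genes were chosen and is given as a description. A p53 decamer has a core of C, then A or T at both middle positions, then G, with purines before the core and pyrimidines after it. It reads the same on both strands. RefSeq promoter windows of assembly GRCm38.p6, from 250 bases before to 50 bases after a transcript start, were held for 27 of the 35 genes. An exact decamer lay in a window of 12 of these 27 genes (44.4%), against 2582 of all 27025 genes with a window (9.55%). No window of the 27 genes held a pair of decamers spaced by 0 to 13 bases, and 20 of all genes did. A match of letters is a description and not a site of binding. The stretches of the feedback genes that had a decamer, and that of the death gene Bax, follow with the decamers in capitals.
Rps27l, chr9:66946183-66946335, plus strand: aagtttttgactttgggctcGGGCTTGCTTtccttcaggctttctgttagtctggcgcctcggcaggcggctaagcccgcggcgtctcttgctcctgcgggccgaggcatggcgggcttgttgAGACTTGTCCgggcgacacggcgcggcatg
Mdm2, chr10:117710915-117710964, minus strand: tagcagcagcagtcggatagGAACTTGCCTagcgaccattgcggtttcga
Ppm1d, chr11:85311102-85311151, plus strand: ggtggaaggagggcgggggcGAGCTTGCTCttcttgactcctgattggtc
Ccng1, chr11:40755442-40755491, minus strand: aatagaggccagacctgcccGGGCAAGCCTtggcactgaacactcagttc
Trp53, chr11:69580264-69580313, plus strand: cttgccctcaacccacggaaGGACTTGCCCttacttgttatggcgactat
Bax, chr7:45467070-45467119, minus strand: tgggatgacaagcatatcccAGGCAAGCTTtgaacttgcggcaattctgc

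The Rps27l window held 2 decamers, which began at -210 and -107 relative to the transcript start. The decamer began at -186 in Mdm2, at -132 in Ppm1d, at -185 in Ccng1, at -75 in Trp53 and at -201 in Bax. Aen, Ei24, Gadd45a, Gtse1, Polk and Sesn1 also had 1 decamer in a window. Of the genes with a decamer, Rps27l and Gtse1 were 2-fold higher in both LSD1 tumours. Mdm2, Ccng1, Bax, Aen and Ei24 were higher in both by less. Trp53, Polk and Sesn1 were lower in both, and Ppm1d and Gadd45a went opposite ways. Mdm4, which was 2-fold lower in both, had none in its windows. A link between decamers and direction was not tested.

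RNA of each tumour was hybridised to 1 one-colour Agilent array, and every value below is a log2 signal relative to the 75th percentile of its array, called a level. A difference is the level in an LSD1 tumour minus that in the p53 tumour. Between 51.5% and 55.6% of spots were well above background on the 3 arrays, and none was saturated. The number of arrays limits the precision. LSD1 tumour 3 and the p53 tumour shared slide 1 and LSD1 tumour 2 was on slide 2, so the difference of LSD1 tumour 3 is also the difference within a slide. Kdm1a had levels of 2.71 and 2.29 in LSD1 tumours 2 and 3, against 2.07 in the p53 tumour. The small excess in LSD1 tumour 3 (0.23) turned with quantile normalization (-0.04) and in the deposited value table (-0.14). With 1 p53 tumour, limma had 1 residual degree of freedom and took the lone array to vary like the LSD1 tumours. It called 0 of the 33 genes at an adjusted p of 0.05 (lowest adjusted p = 0.967) and 0 of all 15241 genes, 0.0%. At an unadjusted p under 0.05 it took 1 of the 33, Gtse1, against 3.73% of all genes. In simulated arrays of this design, with changes of up to 6 log2 units put in, the fit called no changed gene either. The lack of calls and the adjusted p-values given below therefore do not show a lack of difference. The results are counts by size, read beside the same counts over all genes. In the same simulation, 1335 of 15041 genes with no change put in were past 2-fold in both LSD1 arrays, either way. Passing 2-fold in both therefore does not by itself show a change.

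As a whole, the p53 genes did not move one way. Both LSD1 tumours exceeded the p53 tumour in 13 of 33 genes, both were below it in 7, and they went opposite ways in 13. These are 39.4%, 21.2% and 39.4% of the 33, where all genes gave 38.8%, 27.8% and 33.4%. Such counts go by sign, whatever the size, and include differences in LSD1 tumour 3 as small as -0.003 for Bbc3 and 0.009 for Sesn2. The median difference was 0.11 in LSD1 tumour 2 and 0.05 in LSD1 tumour 3, beside 0.05 and 0.16 over all genes. The median size of the difference, whatever its sign, was 0.51 and 0.48, beside 0.52 and 0.59 over all genes. The counts by direction depended on the scaling. In the authors' value table, which moves the median of all genes to -0.16 and -0.20, both LSD1 tumours were higher in 5 genes and lower in 16, against 23.3% and 42.7% of all genes. In that table and the 6 other ways of processing with all 3 arrays, 5 genes stayed higher in both LSD1 tumours (Rps27l, Gtse1, Plk2, Gdf15 and Aen) and 6 stayed lower (Trp53, Mdm4, Pmaip1, Rrm2b, Ercc5 and Sesn1).

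**Figure D1:**
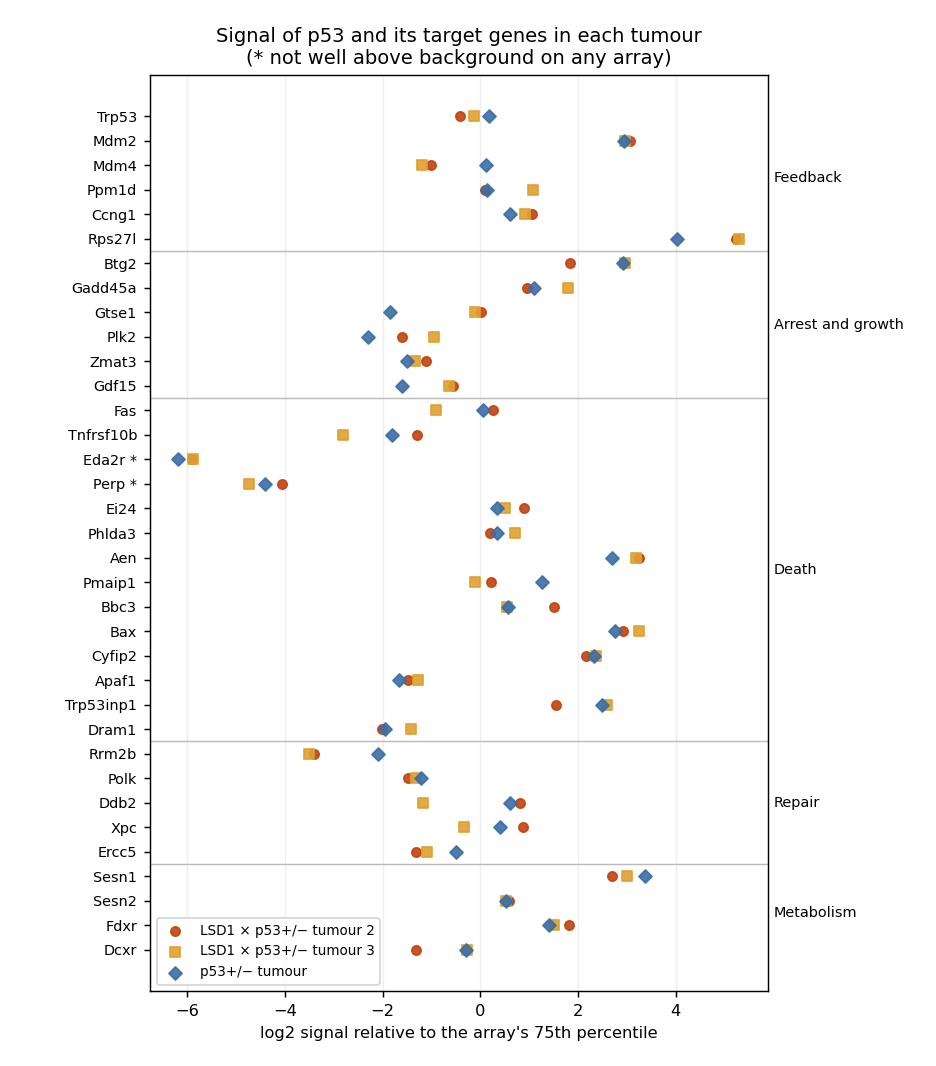
Level of each of the 35 genes in each tumour, as log2 signal relative to the 75th percentile of the array (x axis), by role. Each symbol is 1 array, and asterisks mark Eda2r and Perp, which were not well above background on any. Levels of different genes come from different probes and are not to be set against each other; within a gene, the LSD1 tumours lie on the same side of the p53 tumour in 13 genes as higher and 7 as lower among the 33 tested.

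At least 2-fold higher in both LSD1 tumours were 2 of the 33 genes, Rps27l and Gtse1 (6.06%), where all genes gave 3.48%. At least 2-fold lower in both were 3, Mdm4, Pmaip1 and Rrm2b (9.09%), where all genes gave 5.38%. The 2 comparisons share the p53 array, so a low or high value of that 1 array enters both differences.

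Among the genes of the feedback loop, Trp53 itself had levels of -0.42 and -0.13 in LSD1 tumours 2 and 3, against 0.18 in the p53 tumour. Both LSD1 tumours were below the p53 tumour, by 1.51-fold and 1.23-fold (limma difference -0.45 ± 0.50, SE, adjusted p = 0.969). Its 1 probe cannot be placed against the deleted part of the gene, so it does not check the genotype. Mdm2 had levels of 3.06 and 2.96 in the LSD1 tumours, against 2.94 in the p53 tumour. These 3 values lie within 0.11, and a second Mdm2 probe gave differences of -0.54 and -0.18.

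Mdm4, the inhibitor of p53 that resembles Mdm2, had levels of -1.01 and -1.20 in LSD1 tumours 2 and 3, against 0.12 in the p53 tumour. Both LSD1 tumours were low, by 2.19-fold and 2.49-fold, and differed from each other by 0.18 (limma difference -1.22 ± 0.49, SE, adjusted p = 0.967). All 4 Mdm4 probes were lower in both, with differences of -0.47 to -1.13 in LSD1 tumour 2 and of -0.80 to -1.32 in LSD1 tumour 3. The 2-fold mark was missed with the median of these probes and with normexp background correction in LSD1 tumour 2 (-0.79 log2).

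Rps27l, a paralogue of a small ribosomal subunit protein that binds Mdm2, was the gene of this group that stood highest above the p53 tumour. Its levels were 5.23 and 5.30 in the LSD1 tumours, against 4.03 in the p53 tumour. The LSD1 tumours lay 0.07 apart and 2.30-fold and 2.42-fold above the p53 tumour (limma difference 1.24 ± 0.48, SE, adjusted p = 0.967). The other Rps27l probe gave 1.27 and 1.46. Both differences were under the 2-fold mark with quantile normalization (0.88 and 0.79) and in the deposited value table (0.99 and 0.91). Its paralogue Rps27, chosen after its values were seen, had levels of 7.86 and 8.05 in the LSD1 tumours and 8.33 in the p53 tumour. Whether the probes of these paralogues cross-hybridise was not tested.

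The remaining feedback genes differed less. Ppm1d, encoding the phosphatase WIP1 that switches p53 signalling off, had levels of 0.10 and 1.08 in LSD1 tumours 2 and 3, against 0.14 in the p53 tumour, so that LSD1 tumour 3 alone was higher. Both Ppm1d probes gave this order. Ccng1, encoding cyclin G1, which recruits a phosphatase to Mdm2, had levels of 1.06 and 0.92 in the LSD1 tumours, against 0.61 in the p53 tumour. In the authors' value table the Ccng1 difference in LSD1 tumour 3 was -0.06.

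**Figure D2:**
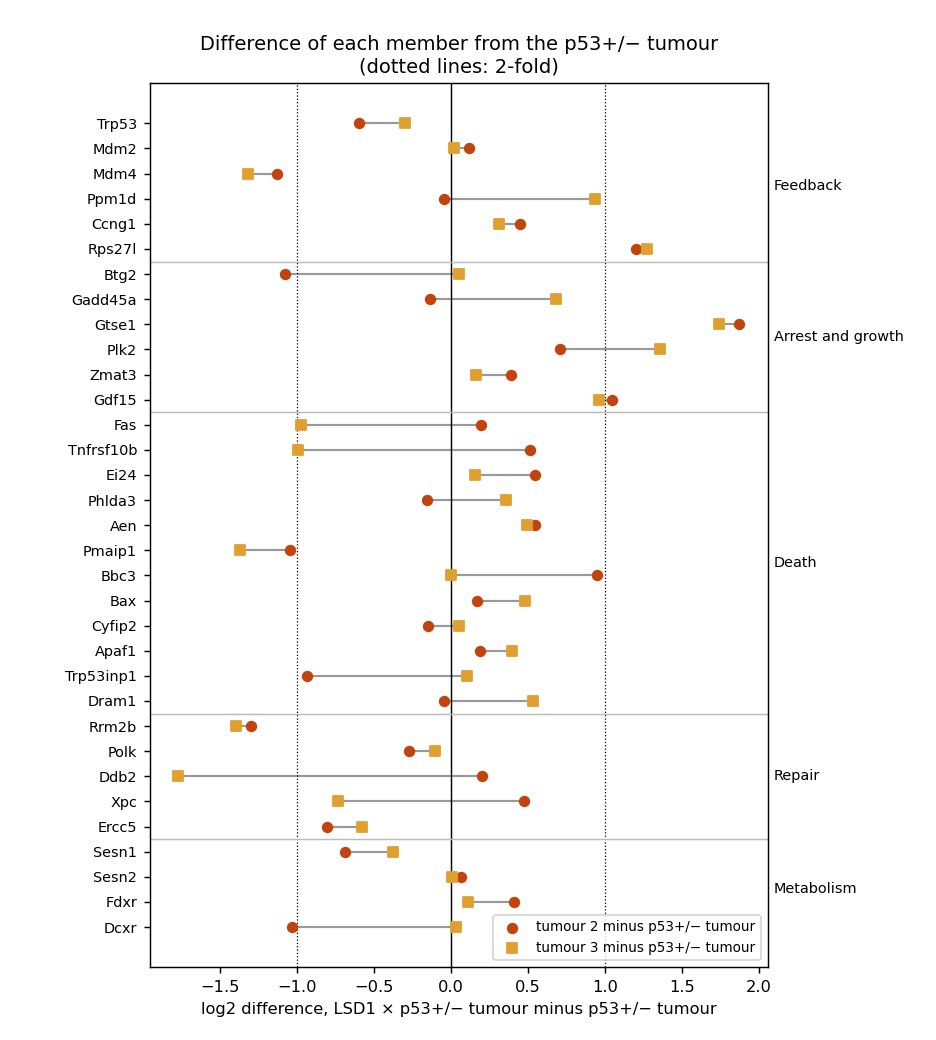
Log2 difference of LSD1 tumour 2 (circles) and LSD1 tumour 3 (squares) from the p53 tumour for the 33 genes tested, by role, with a line joining the values of a gene. Dotted lines mark 2-fold; Gtse1 and Rps27l lie right of them in both tumours and Mdm4, Pmaip1 and Rrm2b left of them in both.

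Of the 6 genes of arrest and growth, 4 were higher in both LSD1 tumours and none was lower in both, where all genes gave 38.8% and 27.8%. Their median differences were 0.55 and 0.82, beside 0.05 and 0.16 over all genes, and 6 genes are too few to call this particular to the group. Gtse1, a protein of G2 and S phase cells that moves p53 out of the nucleus, had levels of 0.02 and -0.12 in LSD1 tumours 2 and 3, against -1.86 in the p53 tumour. It was 3.67-fold and 3.34-fold higher, with the LSD1 tumours 0.14 apart (limma difference 1.81 ± 0.48, SE, unadjusted p = 0.0287, adjusted p = 0.967). It was past 2-fold in both LSD1 tumours in all 7 ways of processing.

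Gdf15, a secreted stress factor of the TGF-β family, had levels of -0.55 and -0.63 in the LSD1 tumours, against -1.60 in the p53 tumour. It stood at the edge of the 2-fold mark, 2.06-fold and 1.95-fold higher, and passed it in both with quantile normalization (1.09 and 1.06 log2). Plk2, a kinase of the centrosome cycle, had levels of -1.60 and -0.95 in LSD1 tumours 2 and 3, against -2.31 in the p53 tumour. Both were higher, by 1.64-fold and 2.57-fold. Zmat3, an RNA-binding regulator of splicing, had levels of -1.11 and -1.34 in the LSD1 tumours, against -1.501 in the p53 tumour.

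Btg2 and Gadd45a gave other orders. Btg2, an antiproliferative adaptor of mRNA deadenylation, had levels of 1.84 and 2.97 in LSD1 tumours 2 and 3, against 2.92 in the p53 tumour. LSD1 tumour 2 alone was low, by 2.11-fold, and the other Btg2 probe gave the same order (-1.01 and 0.18). Gadd45a, a stress protein of arrest and DNA demethylation, had levels of 0.96 and 1.79 in the LSD1 tumours, against 1.101 in the p53 tumour, with LSD1 tumour 3 high.

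Cell cycle genes were higher in the same tumours as Gtse1. A list of 15 markers of dividing cells held many genes repressed by way of p53. The list had 14 members higher in both LSD1 tumours and none lower in both, where all genes gave 38.8% and 27.8%. Its median differences were 0.87 and 1.71, beside 0.05 and 0.16 over all genes. At least 2-fold higher in both were 5 of the 15, against 3.48% of all genes. They were the mitotic kinase genes Cdk1, Bub1 and Aurkb, Cdc20 of the anaphase-promoting complex, and the transcription factor gene Foxm1. Aurkb was under 2-fold in LSD1 tumour 2 in the deposited value table (0.92). The summed signal of all 15 genes, in units of the 75th percentile, was 226 and 451 in LSD1 tumours 2 and 3 and 149 in the p53 tumour. The part of dividing cells in the Gtse1 value was not tested. Fewer cells of a type and less RNA per cell cannot be told apart in these bulk samples.

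Genes of cell death went in both directions. Of 14, 12 were tested, of which 4 were higher in both LSD1 tumours, 1 was lower in both, and 7 went opposite ways, where all genes gave 38.8%, 27.8% and 33.4%. Pmaip1, encoding the BH3-only protein NOXA, had levels of 0.21 and -0.11 in LSD1 tumours 2 and 3, against 1.26 in the p53 tumour. It was 2.07-fold and 2.58-fold lower (limma difference -1.21 ± 0.50, SE, adjusted p = 0.967), and just short of 2-fold in LSD1 tumour 2 with normexp (-0.97). Bbc3, encoding the related BH3-only protein PUMA, did not follow it. Its levels were 1.51 and 0.56 in LSD1 tumours 2 and 3, against 0.56 in the p53 tumour, so LSD1 tumour 2 alone was higher, by 1.93-fold.

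The genes downstream of these proteins in the mitochondrial pathway varied little. Bax, the pore-forming protein of the outer membrane, had levels of 2.93 and 3.24 in the LSD1 tumours, against 2.76 in the p53 tumour. Apaf1, the scaffold of the apoptosome, had levels of -1.47 and -1.26 in the LSD1 tumours, against -1.66 in the p53 tumour. Both genes were higher in both LSD1 tumours, by at most 0.48 log2, and neither kept that order in the authors' value table (Bax -0.05 and 0.12, Apaf1 -0.02 and 0.03). Aen, an exonuclease of apoptotic DNA, had levels of 3.24 and 3.19 in LSD1 tumours 2 and 3, against 2.69 in the p53 tumour. Its 3 probes gave like values, from 0.55 to 0.57 in LSD1 tumour 2 and from 0.41 to 0.59 in LSD1 tumour 3.

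The death receptors were low in LSD1 tumour 3. Fas, the receptor of Fas ligand, had levels of 0.25 and -0.91 in LSD1 tumours 2 and 3, against 0.06 in the p53 tumour. Tnfrsf10b, the mouse TRAIL receptor, had levels of -1.30 and -2.81 in LSD1 tumours 2 and 3, against -1.81 in the p53 tumour. LSD1 tumour 3 was lower by 1.96-fold for Fas and by 1.995-fold for Tnfrsf10b. The second Fas probe, not well above background in LSD1 tumour 2, did not show this (0.01 and 0.23), and that of Tnfrsf10b was not well above background on any. Eda2r, the ectodysplasin A2 receptor, and Perp, a tetraspan protein of epithelial desmosomes, gave no level above background in any tumour. Of 4 epithelial markers, 0, 1 and 2 were above background in LSD1 tumour 2, LSD1 tumour 3 and the p53 tumour.

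Trp53inp1, a stress protein of autophagy and p53 phosphorylation, was low in LSD1 tumour 2, with levels of 1.54 and 2.59 in LSD1 tumours 2 and 3, against 2.48 in the p53 tumour. That was 1.92-fold lower in LSD1 tumour 2, and its second probe gave -1.20 and -0.31. Dram1, of lysosomes and autophagy, had levels of -2.00 and -1.43 in the LSD1 tumours, against -1.96 in the p53 tumour. Ei24, a protein of the endoplasmic reticulum, was higher by 0.54 and 0.15, Phlda3, a repressor of Akt, differed by -0.16 and 0.36, and Cyfip2, a regulator of actin, by -0.15 and 0.05.

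**Figure D3:**
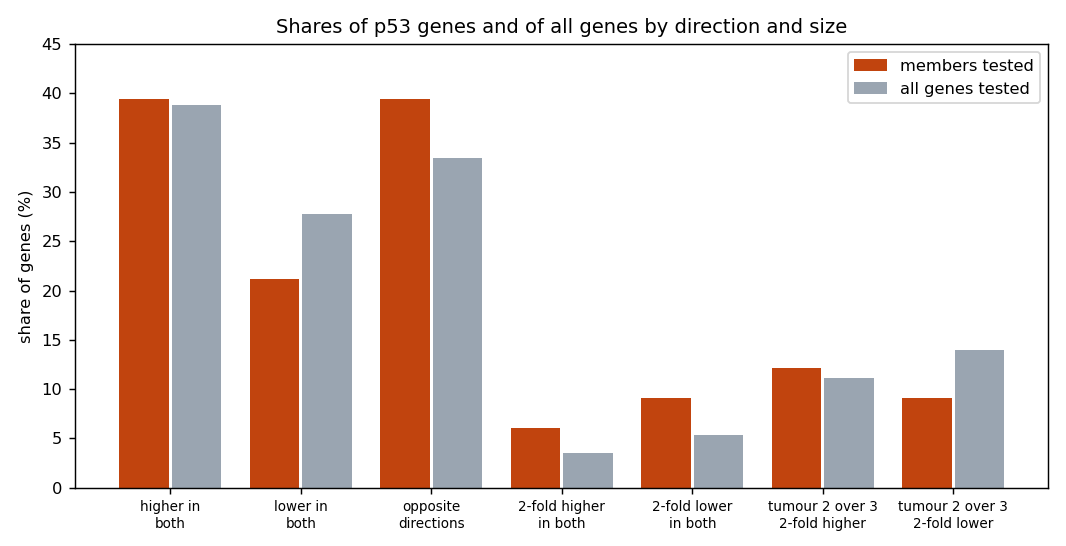
Share of the 33 p53 genes tested (left bars) and of all 15241 genes tested (right bars) in each class of direction or size, in percent. The bars of the p53 genes stand at 39.4%, 21.2% and 39.4% for higher, lower and opposite, and at 6.06% and 9.09% for 2-fold higher and 2-fold lower in both LSD1 tumours; a single gene is 3.03% of the 33.

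Among 5 repair genes none was higher in both LSD1 tumours, and 3 were lower in both, where all genes gave 38.8% and 27.8%. The median differences were -0.27 and -0.74, over too few genes to call this particular to repair. Rrm2b, the p53-inducible small subunit of ribonucleotide reductase that supplies nucleotides outside S phase, had levels of -3.39 and -3.495 in LSD1 tumours 2 and 3, against -2.10 in the p53 tumour. The LSD1 tumours lay 0.10 apart, 2.46-fold and 2.64-fold below the p53 tumour (limma difference -1.35 ± 0.48, SE, adjusted p = 0.967). With normexp, which compresses dim probes, the differences were -0.78 and -0.71. Its S phase paralogue Rrm2 had levels of 4.28 and 5.70 in LSD1 tumours 2 and 3, against 4.35 in the p53 tumour. It was lower by 1.05-fold in LSD1 tumour 2 and higher by 2.56-fold in LSD1 tumour 3.

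Ercc5, the XPG endonuclease of nucleotide excision repair, was lower in both, with levels of -1.31 and -1.08 in the LSD1 tumours, against -0.50 in the p53 tumour. Polk, a polymerase of translesion synthesis, was lower in both by its brightest probe (-0.27 and -0.10), while its other 2 probes were not well above background on any array. Ddb2 and Xpc, the damage sensors of excision repair, were low in LSD1 tumour 3 alone. Ddb2 had levels of 0.81 and -1.17 in LSD1 tumours 2 and 3, against 0.61 in the p53 tumour. It was 3.42-fold lower in LSD1 tumour 3, and the second probe gave 0.32 and -1.41. Xpc had levels of 0.88 and -0.33 in LSD1 tumours 2 and 3, against 0.41 in the p53 tumour, and its second probe gave 0.68 and -0.99.

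The 4 metabolic genes held no 2-fold difference shared by both LSD1 tumours. Sesn1, a sestrin that restrains mTORC1 signalling, had levels of 2.69 and 3.00 in LSD1 tumours 2 and 3, against 3.38 in the p53 tumour, and both LSD1 tumours were below it. Sesn2, its paralogue, had levels of 0.59 and 0.53 in the LSD1 tumours, against 0.53 in the p53 tumour, a spread of 0.06. Fdxr, the mitochondrial ferredoxin reductase, had levels of 1.81 and 1.52 in the LSD1 tumours, against 1.41 in the p53 tumour. Dcxr, a reductase of xylulose, had levels of -1.32 and -0.26 in LSD1 tumours 2 and 3, against -0.29 in the p53 tumour, with LSD1 tumour 2 low by 2.04-fold.

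The LSD1 tumours also differed from each other. LSD1 tumour 2 was at least 2-fold above LSD1 tumour 3 in 4 of 33 genes (12.1%, where all genes gave 11.1%) and at least 2-fold below it in 3 (9.09%, where all genes gave 14.0%). The 4 were Ddb2 (3.94-fold), Tnfrsf10b (2.85-fold), Xpc (2.31-fold) and Fas (2.24-fold). The 3 were Btg2 (2.19-fold), Dcxr (2.09-fold) and Trp53inp1 (2.06-fold). The median size of the gap was 0.31 over the 33 genes and 0.53 over all genes. There is 1 array for each tumour, so these gaps have no replicate check. The LSD1 tumours were also on different slides and scans, so tumour and slide cannot be told apart in these gaps.

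T cell, B cell and erythroid markers also differed between the LSD1 tumours, and granulocyte markers did so by a median of -0.05. All 6 T cell markers were above background on every array, and their summed signal was 204 in LSD1 tumour 2 and 26.7 in LSD1 tumour 3, against 58.0 in the p53 tumour. The 6 B cell markers summed to 35.8 and 140.5 in LSD1 tumours 2 and 3, against 219 in the p53 tumour. The 6 erythroid markers summed to 87.5 and 307 in LSD1 tumours 2 and 3, against 130.5 in the p53 tumour. No marker of these 3 lists was at background. The 6 granulocyte markers were higher in both LSD1 tumours, with sums of 91.8 and 87.8 against 40.95 in the p53 tumour, and 6 macrophage markers summed to 114 and 130 against 143. The 4 stromal markers, all above background, summed to 11.9 and 6.43 against 13.5. All 6 B cell markers were lower in both LSD1 tumours than in the p53 tumour, as were Mdm4, Pmaip1 and Rrm2b. LSD1 tumour 2 minus LSD1 tumour 3 gave a median of -1.815 over the B cell markers. The same gap was 0.185 for Mdm4, 0.32 for Pmaip1 and 0.10 for Rrm2b. All 6 granulocyte markers were higher in both LSD1 tumours, as were Rps27l and Gtse1, whose gaps were -0.07 and 0.14. The part of cell content in the values of these 5 genes, or of the 7 that differed between the LSD1 tumours, was not tested.

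**Figure D4:**
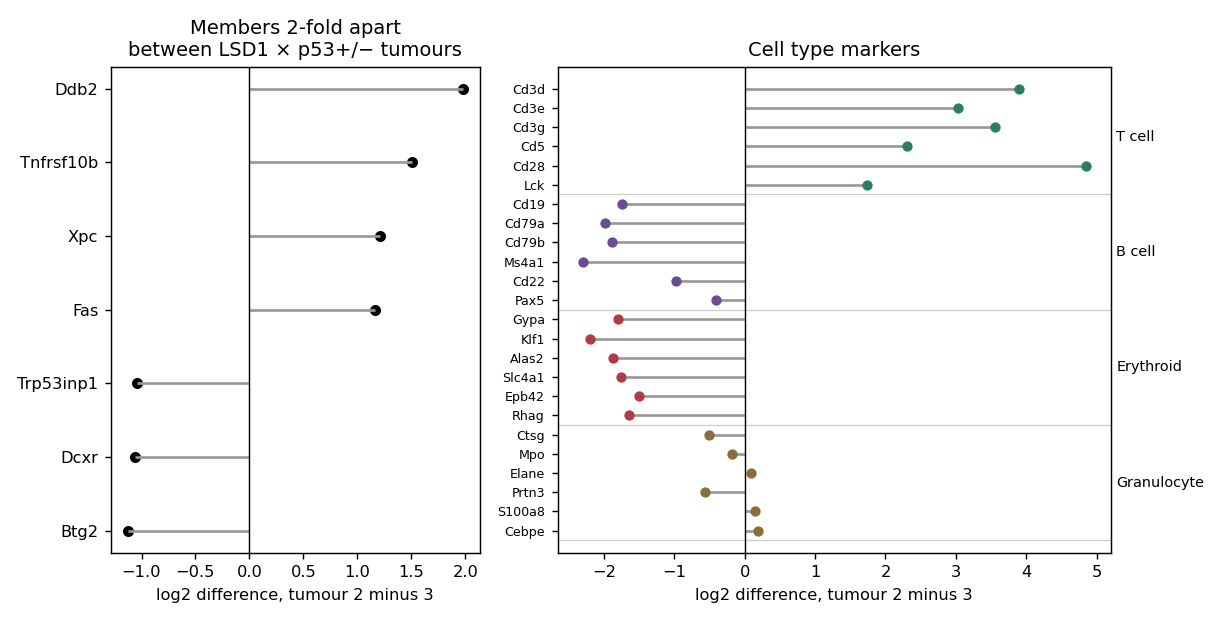
Log2 difference of LSD1 tumour 2 minus LSD1 tumour 3 for the 7 p53 genes at least 2-fold apart (left panel) and for markers of T cells, B cells, erythroid cells and granulocytes (right panel). Ddb2, Tnfrsf10b, Xpc and Fas lie on the side of the 6 T cell markers, and Btg2, Dcxr and Trp53inp1 on the side of the B cell and erythroid markers. Every T cell marker is positive and every B cell and erythroid marker negative. Any gene 2-fold apart thus falls on the side of some list, so the sides do not link these genes to a cell type.

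Other genes of the pathway were taken from a wider list. Of 22 regulators upstream of p53 or acting as its cofactors, 12 exceeded the p53 tumour in both LSD1 tumours and 5 were below it in both, where all genes gave 38.8% and 27.8%. These counts depended on the scaling. In the authors' value table, where 23.3% of all genes were higher in both, most of the 12 did not keep that direction. At least 2-fold higher in both were 2 of the 22, where all genes gave 3.48%. They were Cdkn2a, whose product p19ARF blocks Mdm2 and whose product p16INK4a inhibits cyclin-dependent kinases, and Chek1, the checkpoint kinase of replication stress. By the brighter of its 2 probes, Cdkn2a had levels of 4.65 and 4.55 in LSD1 tumours 2 and 3, against -3.02 in the p53 tumour. Which product's transcript this probe reads was not tested. Chek1 had levels of -0.09 and -0.52 in the LSD1 tumours, against -1.88 in the p53 tumour, 3.47-fold and 2.56-fold higher, and fell short of 2-fold in LSD1 tumour 3 with normexp (0.92) and in the deposited value table (0.99). In the same samples the p53 transcript stood within 1.51-fold of the p53 tumour, and Mdm2 within 1.08-fold by its brightest probe. The second Mdm2 probe gave differences of -0.54 and -0.18. The amount of p53 protein was not measured, and whether the Cdkn2a difference bears on p53 was not tested.

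Among 29 further p53 targets on the array, both LSD1 tumours were higher for 8, both were lower for 7, and 14 went opposite ways, where all genes gave 38.8%, 27.8% and 33.4%. Cdkn1a, encoding the cell cycle inhibitor p21 and one of the most used readouts of p53 activity, had levels of -2.00 and -1.52 in LSD1 tumours 2 and 3, against -2.12 in the p53 tumour. It was 1.08-fold and 1.52-fold higher (limma difference 0.36 ± 0.53, SE, adjusted p = 0.977), and its direction in LSD1 tumour 2 turned in the authors' value table (-0.10). Ckap2, a protein of the mitotic spindle, was 2.09-fold and 3.26-fold higher, but under 2-fold in LSD1 tumour 2 with normexp (0.88) and in the deposited value table (0.85). Sfn, encoding the 14-3-3 sigma protein that holds cells in G2, was 3.00-fold and 3.11-fold lower, with levels of 1.41 and 1.36 in the LSD1 tumours, against 3.00 in the p53 tumour.

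**Figure D5:**
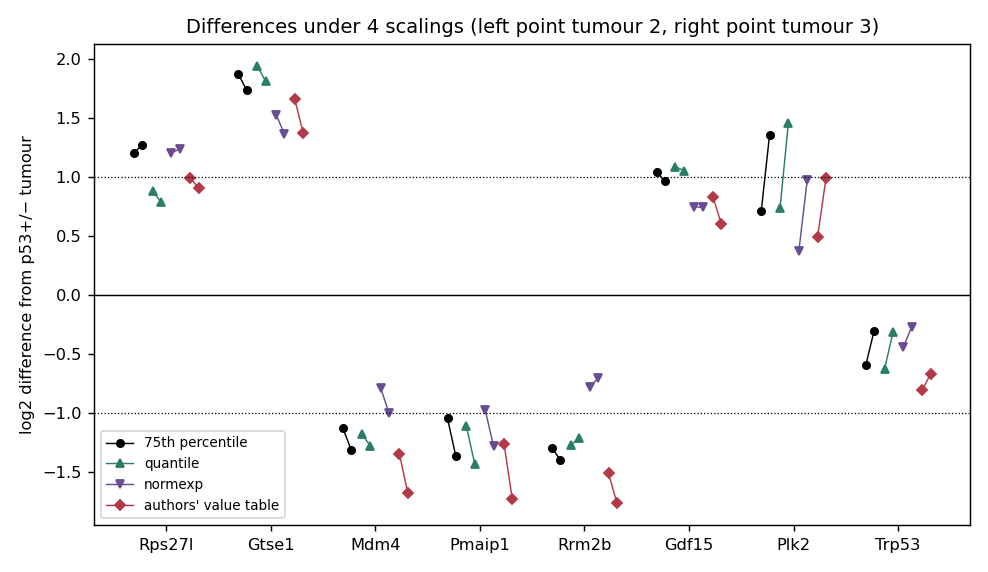
Log2 difference from the p53 tumour under 4 scalings (colours) for 8 genes, with LSD1 tumour 2 as the left and LSD1 tumour 3 as the right point of each pair and dotted lines at 2-fold. Every gene shown keeps its sign; Rps27l is under the 2-fold line with quantile normalization and in the deposited value table, and Rrm2b with normexp in both LSD1 tumours.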

How the data were processed

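Cy3-labelled cRNA of 3 tumours was hybridised to 1 Agilent array each. The authors' deposited scan files hold intensities, per the file headers, from Feature Extraction 11.5.1.1 by Agilent: a processed signal, background-subtracted and detrended within the array, and per-spot flags. The deposited value table held the same intensities times 1 factor per array (0.779, 0.902 and 1.06 for LSD1 tumours 2 and 3 and the p53 tumour). What its scaling rests on is not stated. The array design is annotated on mm9, so no position of a probe is given.

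Processed signals were divided by the 75th percentile of the array (712 and 554 for LSD1 tumours 2 and 3, 608 for the p53 tumour), then converted to log2. Spots the scanner marked as outliers were dropped, and repeated spots of 1 probe averaged. RefSeq accessions named 32994 of 56605 probes. The brightest probe stood for a gene. Differences were fitted with limma 3.58.1 in R 4.3.3 (adjusted by Benjamini-Hochberg) over all genes above background on at least 1 array. Simulated data were used to test the fit. A 2-fold count also asks that the brighter side be well above background.

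All 35 genes are named. Of the wider lists, Cdkn1a, Rrm2 and genes 2-fold in both LSD1 tumours are named; the further targets named under other observations, Kdm1a and Rps27 were chosen after their values were seen. The genes, lists and tests were chosen with earlier results of these data known. Normexp used the median spot signal, since the files hold no mean signal. P-values measure only the spread between these samples.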

Additional observations from a re-analysis of the deposited data

How the results depend on the processing

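With 1 p53 array and 2 LSD1 arrays, limma called none of the p53 genes in any of the 7 ways of processing run. These were 33 genes, or 35 with no filter on dim probes. The genes 2-fold higher in both LSD1 tumours numbered 2, and 1 in the authors' value table. The 2 were Rps27l and Gtse1, but Gtse1 and Gdf15 with quantile normalization. Those 2-fold lower in both numbered 3, 2 with the median over the probes of a gene, and 0 with normexp, whose offset of 50 compresses dim probes. Without 1 of the LSD1 tumours, which leaves no spread to test, these counts were 3 and 4 to 5. With slide as a block the difference equals that of LSD1 tumour 3, giving 3 higher and 4 lower. The median difference was 0.11 in LSD1 tumour 2, and 0.023 with quantile normalization, -0.10 in the authors' value table, 0.17 with no filter on dim probes and 0.063 with the median over the probes of a gene. In LSD1 tumour 3 it was 0.05, and -0.060 with quantile normalization, with -0.32 in the authors' value table. Leaving out a tumour does not alter the median of the other. LSD1 tumour 2 over tumour 3 by 2-fold held 4 genes, and 2 with the median over probes; the reverse held 3, and 1 with quantile normalization, 1 with normexp and 0 in the authors' value table. The causes of these shifts were not tested. None of the 5 genes counted as 2-fold in both changed sign in any setting. No paired analysis was possible because the groups share no replicate number.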

Other observations

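Several of the further p53 targets stood far apart between the LSD1 tumours, and the genes given here were chosen after their values were seen. Of 29 on the array, 7 were at least 2-fold higher in LSD1 tumour 2 than in LSD1 tumour 3 (24.1%, where all genes gave 11.1%) and 7 at least 2-fold lower (24.1%, where all genes gave 14.0%). Zfp365 had a level of 0.57 in LSD1 tumour 2 and was not well above background in LSD1 tumour 3, at least 21.7-fold apart, with -2.96 in the p53 tumour. Igfbp3, a binding protein of insulin-like growth factors, had levels of 3.27 and 0.54 in LSD1 tumours 2 and 3, against 3.42 in the p53 tumour. Ephx1, a microsomal epoxide hydrolase, had levels of 4.41 and 2.10 in LSD1 tumours 2 and 3, against 4.06 in the p53 tumour. Ddit4, an inhibitor of mTORC1, was high in LSD1 tumour 2, with levels of 6.47 and 4.21 in LSD1 tumours 2 and 3, against 4.90 in the p53 tumour. Bid, a BH3-only protein of death receptor signalling, was high in LSD1 tumour 3, with levels of 1.38 and 2.67 in LSD1 tumours 2 and 3, against 1.51 in the p53 tumour. Each tumour has 1 array, so none of these gaps has a replicate check, and each is also a gap between slides.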
